A study of Mus musculus with 6 samples.

Results

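The genes described here are markers of hepatic stellate cells and genes of the extracellular matrix, measured in the liver of mice without CREB-H. They form a list of 42 genes, chosen by name: collagens, matrix proteins and remodelling enzymes, and genes that mark stellate cells. Earlier results of these data were known when the list was chosen. A probe set naming a single gene was found for 40 of the 42, out of 22180 genes measured in this way. Fbn1 has no probe set named here, and Loxl2 shares its probe sets with another gene, so neither was used. Ctgf is listed under its current symbol Ccn2.

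All 6 mice carried the knockout allele Creb3l3tm1.1Sad/J, were 8 weeks old, ate a normal diet and were injected intraperitoneally with a liver-directed adeno-associated virus (AAV). In 3 mice the virus carried green fluorescent protein (AAV-GFP, the control), and in the other 3 it carried CREB-H-ΔTC, an active version of the factor. Livers were taken 2 weeks later, and total RNA of each was hybridised to 1 array of 41345 probe sets. The sources used here name neither the promoter that drives the transgenes nor the cell type that took up the virus. The labels call the 3 samples of a group biological replicates. The groups are called GFP and CREB-H below, and an array is named by its group and replicate number.

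Values are log2 signals, so that a difference of 1 is a doubling. Array medians ran from 4.98 to 5.01, and precision is limited by the small number of arrays. Creb3l3 itself read 6.55, 5.93 and 6.40 with GFP and 6.73, 7.25 and 7.58 with CREB-H, without overlap (log2 fold change 0.89, SE 0.25, limma adjusted p = 0.647). Where its probes lie relative to the deleted part of the gene is not known here. Averaged over Uty, Kdm5d and Eif2s3y, Y-linked signal was 7.83 on GFP 3 and 7.67 on CREB-H 3, against 3.15 to 3.39 on the other 4 arrays. The labels do not give the animals' sex, so results on those 4 arrays alone are given further on.

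Hepatic stellate cells lie between the hepatocytes and the sinusoidal endothelium, where they store vitamin A as retinyl esters. After injury they can turn into contractile myofibroblasts, which are the main source of fibrillar collagen in a scarred liver. The matrix is a balance of synthesis, cross-linking by lysyl oxidases, cleavage by matrix metalloproteinases and inhibition of those by TIMP proteins, with TGF-beta and PDGF as the best known signals for matrix production and for stellate cell growth. Whole liver is mostly hepatocytes by RNA. In such bulk tissue fewer cells of a type and less RNA per cell cannot be told apart.

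No stellate cell or matrix gene passed the test between CREB-H and GFP. The comparison asked which liver genes differ when the active factor is supplied to mice that lack it. It was tested with limma over all 41345 probe sets with Benjamini-Hochberg adjustment, and the adjusted p of the 40 genes ran from 0.647 to 0.996. Over all probe sets 2 passed, or 0.00484%. The estimates leaned upward by small amounts: 31 of the 40 genes (77.5%) had a higher mean with CREB-H, against 46.3% of all probe sets, and the median log2 fold change was 0.16, against -0.01 over all probe sets. That lean was not particular to the list: 67.9% of other matrix genes and 69.1% of cell type markers, read further on, were also higher. At an unadjusted p below 0.05 there was 1 higher gene of 40 (2.5%), Mmp2, beside 2.93% of all probe sets, and no lower gene, beside 3.97%. In 3 genes (7.5%), Mmp2, Pdgfrb and Thbs1, all CREB-H arrays lay above all GFP arrays, beside 5.23% of all probe sets, and in none did they lie below, beside 7.1%. On all 6 arrays the 2.5% higher at an unadjusted p below 0.05 and the 7.5% higher without overlap lie near the shares of all probe sets. Both depended on the arrays and the model. At an unadjusted p below 0.05 there were 6 higher genes with a term for Y-linked signal, beside 3.74% of all probe sets, and 8 without CREB-H 3, beside 3.04%. There was 1 when either CREB-H 1 or CREB-H 2 was left out, beside 2.35% and 2.88%. The count without overlap was 17 when CREB-H 3 was left out, beside 10.5% of all probe sets, 8 when GFP 2 was, beside 9.32%, and 5 when GFP 1 was, beside 9.27%. It was 4 when GFP 3 was left out, beside 11.8%, and 3 when either CREB-H 1 or CREB-H 2 was, beside 9.1% and 9.81%.

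The size of a change in array signal that the data allow is bounded. For 37 of the 40 genes the 95% confidence interval of the fold lay between 0.5 and 2, so that a doubling or halving of signal lay outside it. The 37 include the dim probe sets of Timp1, Lox and Loxl1, where a difference in RNA may be understated. The exceptions were Col14a1 with an upper bound of 2.05, Timp3 with 2.22 and Mmp2 with 2.25. Standard errors (SE) of the log2 differences had a median of 0.16 in these genes. The median of the list depended on single arrays. Leaving out GFP 3 gave 0.06, leaving out CREB-H 1 gave 0.08 and leaving out CREB-H 2 gave 0.02. The plot of differences by gene shows how close to 0 most of the estimates lie.

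**Figure D1:**
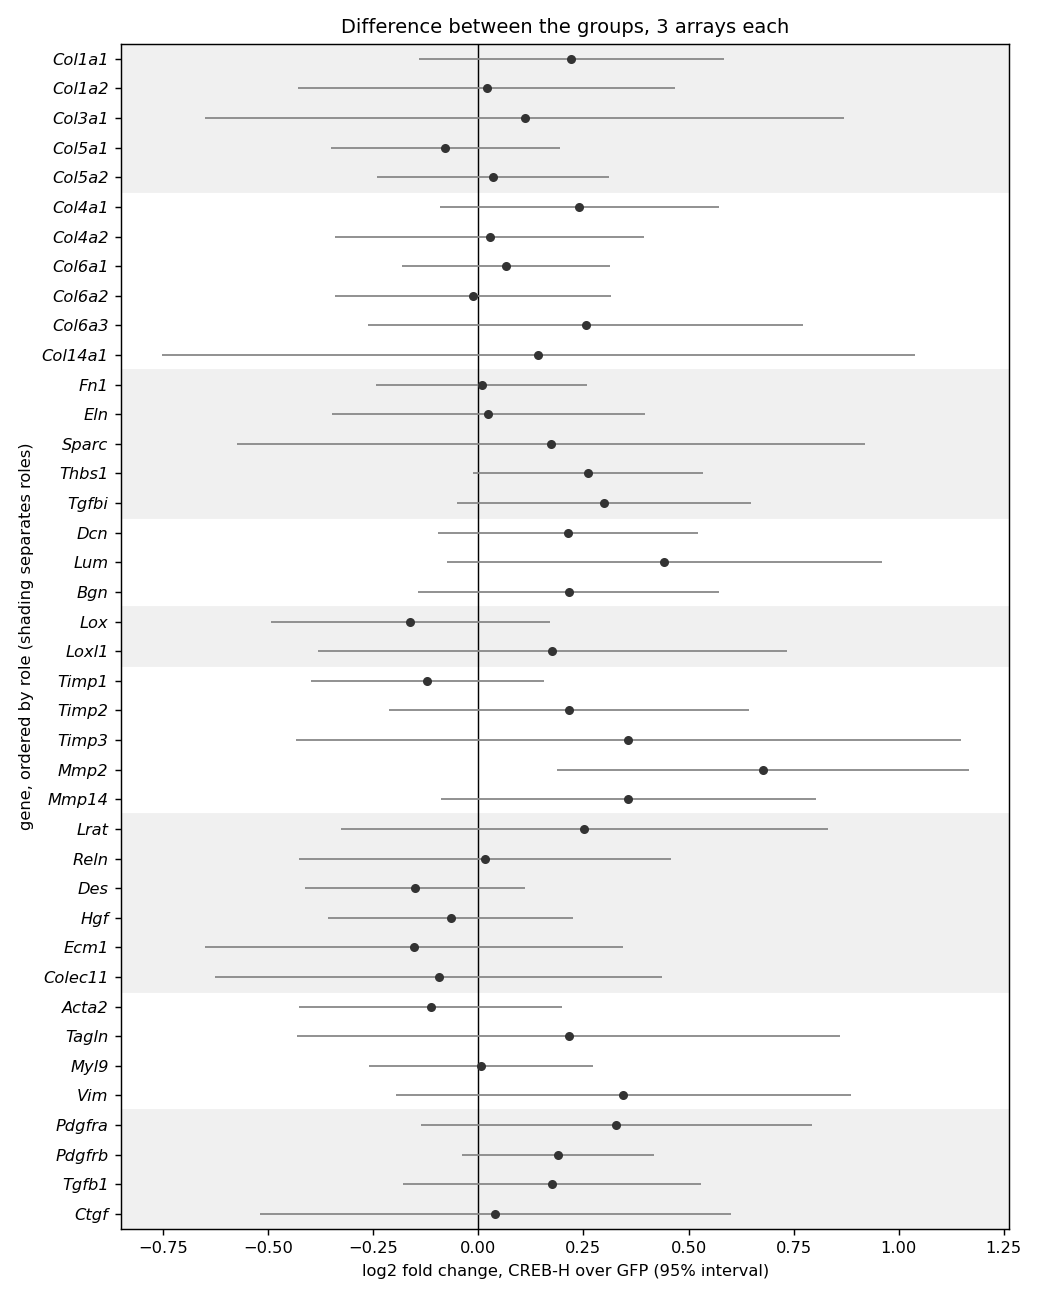
Log2 fold change of CREB-H over GFP (points) with its 95% confidence interval (bars) for the 40 measured genes, 3 arrays per group, ordered by role with shading between roles. Only the interval of Mmp2 lies wholly above 0, and that gene did not pass after adjustment over all probe sets.

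CREB-H belongs to the CREB and ATF family of factors, which bind the cyclic AMP response element (CRE) and its shorter core, so the promoter windows of the genes were read for these letters. RefSeq windows of build GRCm38.p6, from 250 bases before to 50 after the start site, were used for 26 of the 40 genes. List genes on a single chromosome were left out of this reading, while the shares over all windows were not filtered in that way. None of the 26 held the full element TGACGTCA on either strand, which 1.79% of all 32851 windows hold. The core TGACG, which is also the first part of the full element, was found on either strand in 3 of the 26 genes (Des, Pdgfra and Timp1) and in 20.8% of all windows. The match in Des lies after the start site. The other matches are shown because they are the places in these windows where the letters of the CREB-H family occur upstream, with the core in capitals (CGTCA is TGACG on the opposite strand). Both lie on the plus strand of the genome, Pdgfra at chr5:75152013-75152057 and Timp1 at chrX:20870062-20870106.
Pdgfra: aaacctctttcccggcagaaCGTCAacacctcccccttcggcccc
Timp1: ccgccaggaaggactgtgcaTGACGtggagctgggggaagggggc

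A further element is known for the contractile genes. Serum response factor binds the CArG box, which drives many smooth muscle and myofibroblast genes. In these windows it was found in 1 of the 26 genes, Myl9, and in 1.63% of all windows. Its letters stand in capitals below, from chr2:156775283-156775332 on the plus strand.
Myl9: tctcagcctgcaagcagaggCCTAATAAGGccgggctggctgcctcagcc

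Other letters searched were CCAAT, found in 9 of the 26 genes and in 37.4% of all windows, TATAAA, in 3 genes and 13.6%, and CAGAC, the core of a SMAD element, in 14 genes and 49.6%. Col4a1 and Col4a2 lie head to head, and their windows share 78 bases. All these matches are descriptions of letters and show no binding.

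The fibrillar collagens form the tensile fibres of the matrix, and none of the 5 differed between the groups beyond the spread of the arrays. Col1a1 and Col1a2 encode the chains of type I collagen, the main fibril of scar tissue. Col1a1 read 6.06, 6.19 and 5.94 with GFP and 6.12, 6.57 and 6.16 with CREB-H, a log2 fold change of 0.22 (SE 0.15). The groups overlapped, and CREB-H 2 stood above the other arrays. Col1a2 had 6.31, 6.09 and 5.78 against 6.19, 6.27 and 5.78, a log2 fold change of 0.02 (SE 0.19), with replicate 3 lowest in each group. The 95% interval of the fold was 0.906 to 1.5 for Col1a1 and 0.743 to 1.38 for Col1a2.

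Col3a1, the type III chain of reticular fibres, was the fibrillar collagen with the widest spread. Its signal was 6.43, 6.36 and 6.24 with GFP and 6.85, 6.85 and 5.66 with CREB-H. The first 2 CREB-H arrays stood above all GFP arrays and CREB-H 3 below all of them, so that the log2 fold change of 0.11 had an SE of 0.32. Without replicate 3 of both groups it was 0.46. Col5a1 and Col5a2 belong to type V collagen, which regulates the start and width of fibrils, and their log2 fold changes were -0.08 (SE 0.11) and 0.04 (SE 0.12). Over the 5 fibrillar collagens the median was 0.04, with 4 of 5 positive.

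Sheet, microfibril and fibril-associated collagens had a median of 0.10 and 5 of 6 positive. Col4a1 and Col4a2 encode the paired chains of basement membrane type IV collagen. Col4a1 read 6.31, 5.98 and 5.93 with GFP and 6.33, 6.42 and 6.19 with CREB-H (log2 fold change 0.24, SE 0.14). Col4a2 read 6.19, 5.87 and 6.07 against 6.001, 6.334 and 5.876 (0.03, SE 0.16). In both genes the groups overlapped, in Col4a1 through GFP 1.

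Type VI collagen forms beaded microfibrils around cells. Its chains had log2 fold changes of 0.07 for Col6a1 (SE 0.10), -0.01 for Col6a2 (SE 0.14) and 0.26 for Col6a3 (SE 0.22). A second, dimmer probe set of Col6a1 gave -0.16 (SE 0.12), opposite in sign to the first. Col14a1, a fibril-associated collagen found in stellate cells and fibroblasts, read 8.16, 8.04 and 7.29 with GFP and 8.27, 8.46 and 7.19 with CREB-H. Replicate 3 minus the mean of the other arrays of its group was -0.81 with GFP and -1.17 with CREB-H. The log2 fold change was 0.14 (SE 0.38).

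Among the adhesive and elastic glycoproteins, all 5 measured genes had a positive difference, with a median of 0.17, and none passed. Thbs1, thrombospondin, which can activate latent TGF-beta, was 1 of the 3 genes without overlap. It read 4.97, 5.17 and 4.90 with GFP and 5.36, 5.26 and 5.21 with CREB-H. The log2 fold change was 0.26 (SE 0.12, limma adjusted p = 0.743), or a fold of 1.20 with a 95% interval of 0.992 to 1.45. An exact permutation test (two-sided) gave p = 0.1, which is the lowest value possible with 3 arrays per group.

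Tgfbi, a matrix protein named for its induction by TGF-beta, read 9.19, 9.18 and 8.93 with GFP and 9.58, 9.46 and 9.15 with CREB-H. The overlap came from CREB-H 3 alone, and the log2 fold change was 0.30 (SE 0.15). Sparc, a collagen-binding protein of matrix-producing cells, read 8.20, 8.16 and 7.54 against 8.33, 8.60 and 7.50, again with replicate 3 lowest in each group (0.17, SE 0.31). Eln, the elastin precursor, had 0.02 (SE 0.16). Fn1, fibronectin, which hepatocytes secrete into plasma in bulk, read 12.18, 12.33 and 12.22 against 12.33, 12.30 and 12.14 (0.01, SE 0.11). Its fold of 1.01 had a 95% interval of 0.845 to 1.20, 1 of the tighter bounds of the list.

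Small leucine-rich proteoglycans coat collagen fibrils and bind TGF-beta, and all 3 had a positive difference on this scale, with a median of 0.22. Lum, lumican, read 6.64, 6.40 and 6.04 with GFP and 6.97, 7.02 and 6.41 with CREB-H. Within each group replicate 3 was lowest, the groups overlapped through CREB-H 3, and the log2 fold change was 0.44 (SE 0.22, limma adjusted p = 0.780). Dcn, decorin, read 11.25, 11.36 and 11.01 against 11.41, 11.55 and 11.31 (0.21, SE 0.13). Bgn, biglycan, read 10.68, 11.18 and 10.89 against 11.12, 11.24 and 11.03 (0.22, SE 0.15), and its second probe set gave 0.15 (SE 0.11). In neither gene did the groups separate.

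The remodelling enzymes held the largest difference of the list. Mmp2, gelatinase A, which cleaves denatured and basement membrane collagen, read 4.62, 5.07 and 5.40 with GFP and 5.54, 5.84 and 5.75 with CREB-H. All CREB-H arrays lay above all GFP arrays, with GFP 3 and CREB-H 1 closest to each other. The signal was dim, and on GFP 1 it lay below the median of that array. The means were 5.03 ± 0.39 and 5.71 ± 0.16 (SD, n = 3 per group). The log2 fold change was 0.68 (SE 0.21), a fold of 1.60 with a 95% interval of 1.14 to 2.25. The unadjusted limma p was 0.0139 and the adjusted p 0.647, which did not pass, and the exact two-sided permutation p was 0.1. With 1 array left out the log2 fold change stayed between 0.47 and 0.86.

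Mmp14, the membrane-bound metalloproteinase that activates the Mmp2 proenzyme, read 7.70, 8.02 and 8.28 with GFP and 8.25, 8.20 and 8.62 with CREB-H. The groups overlapped through GFP 3, and the log2 fold change was 0.36 (SE 0.19, limma adjusted p = 0.797). In this gene replicate 3 was the highest of each group, unlike in most of the list. The differences of the inhibitors had both signs. Timp3, the matrix-bound inhibitor, read 7.47, 7.58 and 6.86 against 8.12, 7.91 and 6.97 (0.36, SE 0.33). Timp2, which also takes part in the activation of Mmp2, read 6.68, 6.91 and 6.93 against 7.00, 7.41 and 6.76 (0.22, SE 0.18), where CREB-H 3 alone lay inside the range of GFP. Timp1, the inhibitor most often raised in injured liver, read 3.55, 3.66 and 3.67 against 3.69, 3.40 and 3.43 (-0.12, SE 0.12).

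Timp1, Lox and Loxl1 lay below the median signal of their array on all 6 arrays. Thbs1 did so on GFP 1 and GFP 3, and Mmp2 on GFP 1. Differences of such dim probe sets may be understated, and detection calls were not used here. Lox and Loxl1 encode enzymes that cross-link collagen and elastin. Lox had a log2 fold change of -0.16 (SE 0.14) and Loxl1 of 0.18 (SE 0.23), with overlapping groups.

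Genes that mark resting stellate cells did not differ between the groups beyond the spread of the arrays: 2 of 6 had a positive difference, and the median was -0.08. Lrat, which makes the retinyl esters stored by these cells, read 8.67, 8.73 and 8.57 with GFP and 9.10, 9.29 and 8.33 with CREB-H. The first 2 CREB-H arrays were above all GFP arrays and CREB-H 3 was below all of them, giving a log2 fold change of 0.25 (SE 0.24). Reln, a secreted glycoprotein of stellate cells, read 8.23, 8.38 and 8.07 against 8.44, 8.43 and 7.86 (0.02, SE 0.19), in the same arrangement. Des, the intermediate filament desmin, read 5.50, 5.62 and 5.76 against 5.41, 5.46 and 5.55 (-0.15, SE 0.11).

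The other 3 genes of this role encode secreted proteins. Hgf, the hepatocyte growth factor, had a log2 fold change of -0.07 (SE 0.12). Ecm1, a matrix protein that restrains activation of latent TGF-beta, read 9.55, 9.66 and 9.54 with GFP and 9.78, 9.55 and 8.96 with CREB-H (-0.15, SE 0.21). Colec11, a collectin, read 7.56, 7.37 and 7.24 against 7.50, 7.60 and 6.80 (-0.09, SE 0.22). In both of these CREB-H 3 was the lowest of the 6 arrays. Without replicate 3 of both groups, their log2 fold changes were 0.06 and 0.08, and the median of the 6 resting-cell genes was 0.07.

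Contractile and cytoskeletal genes, which rise when stellate cells become myofibroblasts, had a median of 0.11, with 3 of 4 positive. Acta2, smooth muscle actin and the usual marker of that state, read 6.65, 6.59 and 6.71 with GFP and 6.62, 6.69 and 6.29 with CREB-H. Its log2 fold change was -0.11 (SE 0.13), a fold of 0.924 with a 95% interval of 0.744 to 1.15, and 0.04 without replicate 3 of both groups. Myl9, the myosin light chain whose CArG box is shown above, read 6.25, 6.35 and 6.18 against 6.18, 6.41 and 6.21 (0.01, SE 0.11). Tagln, transgelin, read 5.97, 5.50 and 5.30 against 5.83, 6.26 and 5.32 (0.21, SE 0.27). Vim, vimentin, which is also made by endothelial cells and leukocytes, read 8.27, 8.29 and 7.87 against 8.61, 8.83 and 8.03 (0.34, SE 0.23). In Vim the groups overlapped through CREB-H 3.

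Growth factors and receptors of stellate cells had 4 of 4 positive differences and a median of 0.18, and none passed. Pdgfrb, the PDGF receptor of pericytes and stellate cells, read 6.25, 6.25 and 6.38 with GFP and 6.45, 6.52 and 6.47 with CREB-H, without overlap. The log2 fold change was 0.19 (SE 0.10, limma adjusted p = 0.787), a fold of 1.14 with a 95% interval of 0.973 to 1.34, and the exact two-sided permutation p was 0.1. Pdgfra, the other PDGF receptor, whose upstream TGACG match is shown above, read 6.91, 7.36 and 6.60 against 7.39, 7.20 and 7.25. GFP 2 lay within the CREB-H range, and the log2 fold change was 0.33 (SE 0.20).

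Tgfb1, the main fibrogenic cytokine, read 7.01, 7.03 and 6.94 with GFP and 7.27, 7.37 and 6.87 with CREB-H (0.18, SE 0.15). Ctgf, a matrix-associated protein induced by TGF-beta and by YAP, read 6.56, 6.75 and 5.93 against 6.53, 6.66 and 6.18 (0.04, SE 0.24). Its second probe set gave -0.04 (SE 0.16). The plot of values by array shows the 3 genes without overlap among the other 37.

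**Figure D2:**
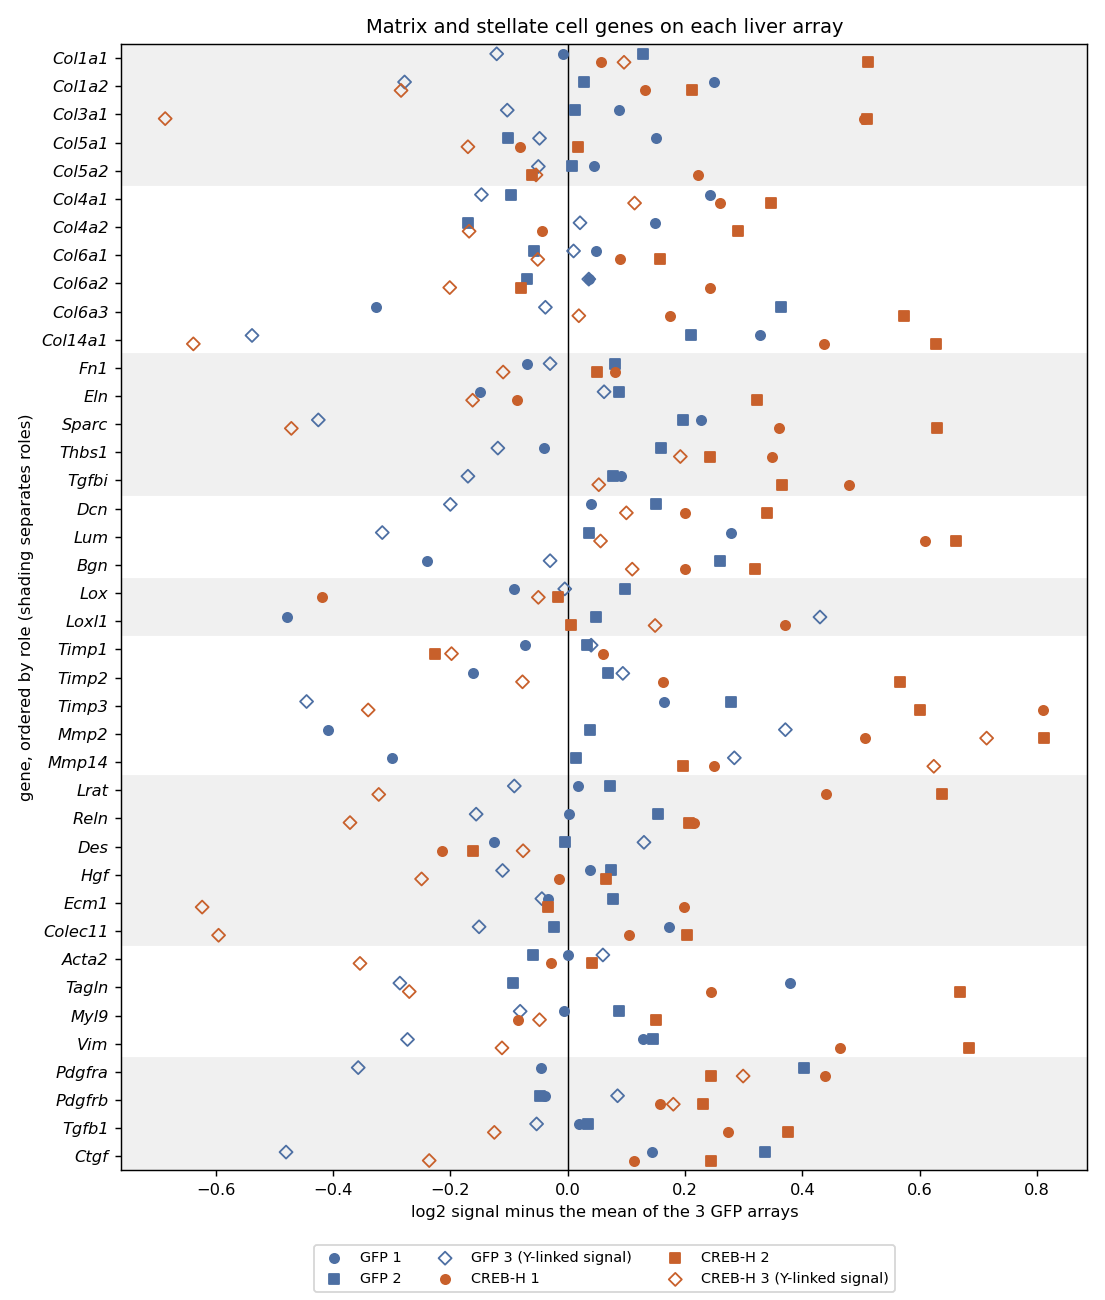
Log2 signal on each of the 6 arrays minus the mean of the 3 GFP arrays, for each of the 40 genes, with GFP in blue and CREB-H in orange. Open diamonds are replicate 3, which carried Y-linked signal and was the lowest of its group in both groups in 19 of the 40 genes.

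Replicate 3 stood low within both groups in a large part of the list. It was the lowest array of both groups in 19 of 40 genes (47.5%), against 14% of all probe sets, and the highest of both in 2 (5%), Des and Mmp14, against 16.2%. This was noticed in the data and then counted in the same data. The genes included Col14a1, Sparc, Timp3, Lum, Vim and Ctgf. The pattern was not particular to this list. The share was 45.5% in laminins, nidogens and other matrix proteins, 44.4% in liver endothelial markers and 87.5% in Kupffer cell and macrophage markers. In other collagens it was 15.4% and in smooth muscle markers 14.3%. Over the 40 genes the median of GFP 3 minus the mean of GFP 1 and 2 was -0.10, and that of CREB-H 3 minus the mean of CREB-H 1 and 2 was -0.28. The animals of replicate 3 also differed in Y-linked signal, and its part in the result cannot be told apart from that of the single animals.

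On the 4 arrays without Y-linked signal, 33 of 40 genes (82.5%) had a higher mean with CREB-H, against 46.9% of all probe sets, and the median log2 fold change was 0.20. Both CREB-H arrays lay above both GFP arrays in 18 genes (45%), beside 18.5% of all probe sets, and below in 1, Des (2.5%), beside 21.1%. With 2 arrays per group no probe set passed the limma test after adjustment (0%), and 3338 probe sets had an unadjusted p below 0.05. Of the list, 7 genes did: Mmp2, Col3a1, Lrat, Timp3, Lum, Vim and Tgfbi, with log2 fold changes of 0.84, 0.46, 0.49, 0.48, 0.48, 0.44 and 0.34. Higher probe sets at that level made up 3.74% of all. Among genes without overlap on these 4 arrays but not on all 6 were Reln with 0.13 (SE 0.13), Col14a1 with 0.26 (SE 0.14) and Sparc with 0.28 (SE 0.14).

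Between the 2 arrays with Y-linked signal the list did not lean upward. CREB-H 3 was above GFP 3 in 17 of 40 genes (42.5%), against 48% of all probe sets, and the median difference was -0.05. In 18 of the 40 genes the difference was positive on the 4 arrays and negative between these 2, as it was in 23.1% of all probe sets. Col3a1 had 0.46 and -0.58, Lrat 0.49 and -0.23, and Timp2 0.41 and -0.17. The interaction of group with Y-linked signal, fitted with limma over all probe sets, passed in no probe set (0%). At an unadjusted p below 0.05 it had 2852 probe sets (6.90%) and 2 of the 40 genes, Col3a1 and Lrat, and the lowest adjusted p of the list was 0.591. With a single array per group carrying that signal, the interaction compares 2 animals with 4.

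**Figure D3:**
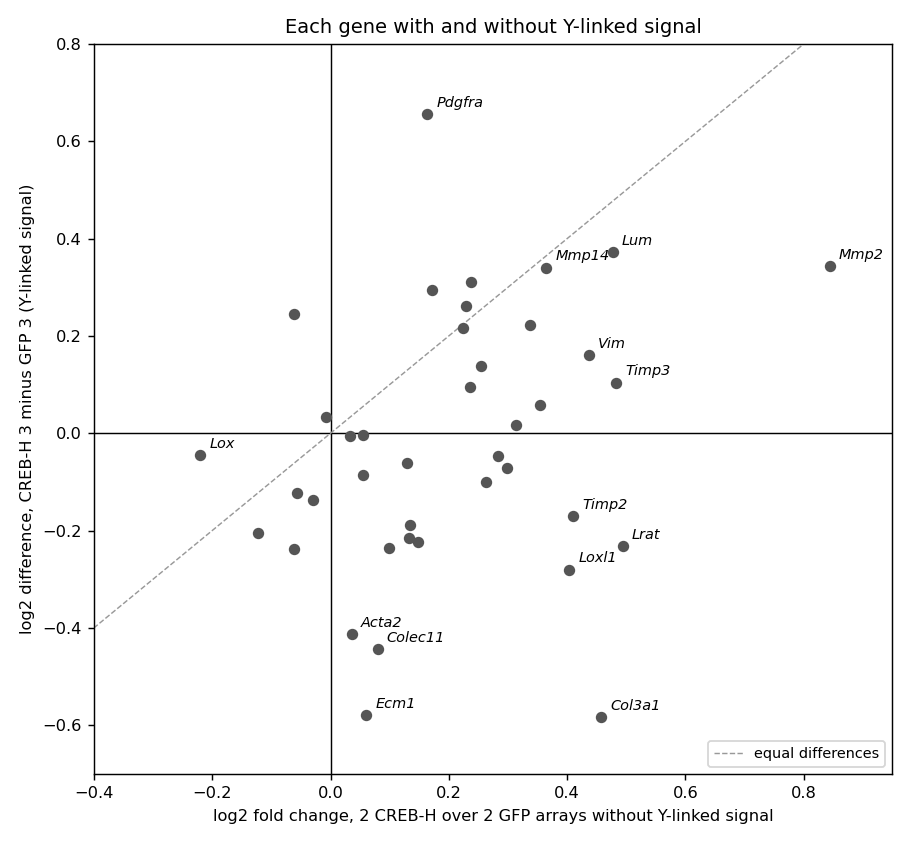
For each of the 40 genes, the log2 fold change on the 4 arrays without Y-linked signal (x) against the log2 difference of CREB-H 3 minus GFP 3 (y), with some genes named and a dashed line of equal differences. Most points lie right of 0 on the x axis, 33 of 40, while 17 of 40 lie above 0 on the y axis.

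Other genes of matrix biology were read from 6 lists with 112 measured genes outside the first list. None passed over all probe sets (lowest limma adjusted p = 0.613), and 76 of 112 (67.9%) had a positive difference, against 46.3% of all probe sets, with a median of 0.05. At an unadjusted p below 0.05 there were 8 higher genes (7.14%), beside 2.93% of all probe sets, and 3 lower (2.68%), beside 3.97%. These lists were chosen with earlier results of these data known, so their shares are no independent support. Genes of collagen folding, modification and processing had a median of 0.14, with 15 of 18 positive (83.3%, against 46.3% of all probe sets) and 3 higher without overlap (16.7%, beside 5.23%). Serpinh1, the collagen-specific chaperone, read 5.83, 5.90 and 5.66 with GFP and 6.25, 6.66 and 6.004 with CREB-H (log2 fold change 0.51, SE 0.18). P4hb, a subunit of prolyl hydroxylase that also folds other secreted proteins, had 0.34 (SE 0.11). Mia3, which loads bulky cargo such as collagen into transport vesicles, had 0.57 (SE 0.15).

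In the list of other collagens the median was 0.02, with 7 of 13 positive. Col12a1, a fibril-associated collagen, read 6.01, 5.42 and 5.60 with GFP and 4.43, 5.23 and 4.48 with CREB-H. All CREB-H arrays lay below all GFP arrays, and the log2 fold change was -0.96 (SE 0.26, limma adjusted p = 0.627). Laminins, nidogens and other matrix proteins had a median of 0.07, with 16 of 22 positive. Their lowest p belonged to Lamb3, a laminin chain of epithelial basement membranes, which read 5.57, 5.31 and 5.28 against 6.99, 5.94 and 7.23. Its log2 fold change of 1.33 (SE 0.32, limma adjusted p = 0.623) did not pass.

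Other proteases and inhibitors had a median of 0.01, with 9 of 17 positive. Timp4, the remaining TIMP inhibitor, read 5.21, 4.95 and 5.23 with GFP and 4.68, 4.71 and 4.65 with CREB-H, without overlap (-0.45, SE 0.11). TGF-beta and PDGF signalling had a median of 0.01, with 15 of 24 positive, and a median of 0.11 without replicate 3 of both groups. Pdgfb, a ligand of the Pdgfrb receptor, read 5.16, 5.15 and 5.19 against 5.42, 5.54 and 5.33, also without overlap (0.26, SE 0.10). Matrix receptors had a median of 0.10, with 14 of 18 positive. Their lowest p belonged to Itga3, an integrin chain that binds laminins, at 0.50 (SE 0.11), and to the syndecan gene Sdc4 at 0.52 (SE 0.15).

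Markers of cell types were read beside the list, since stellate cells and fibroblasts are a small part of the liver. Of 68 measured markers 47 (69.1%) had a positive difference, against 46.3% of all probe sets, with a median of 0.11. A further 11 stellate cell genes outside the first list had a median of 0.06, with 6 of 11 positive and none at an unadjusted p below 0.05. The mean log2 level of these genes ran from 7.15 to 7.32 with GFP and from 7.19 to 7.36 with CREB-H. The genes with the lowest p of this list had both signs: Pth1r, the parathyroid hormone receptor, had -0.16 (SE 0.12), Rgs5, of pericytes and stellate cells, had 0.30 (SE 0.23), and Hand2, a stellate cell transcription factor, had 0.15 (SE 0.14). Portal fibroblast markers had a median of 0.10 (5 of 7 positive), and smooth muscle markers of -0.02 (2 of 7 positive).

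Markers of other cells were also uneven over these arrays. All 8 Kupffer cell and macrophage markers had a positive difference, with a median of 0.41, and 7 of 8 were lowest on replicate 3 of both groups. Their mean log2 level ran from 7.73 to 8.87 with GFP and from 8.21 to 9.08 with CREB-H. Cd68, a lysosomal protein of macrophages, read 7.58, 8.14 and 8.01 against 8.29, 8.65 and 8.16, without overlap (0.46, SE 0.19). Vsig4, a complement receptor of Kupffer cells, had 0.60 (SE 0.27). Liver endothelial markers had a median of 0.16 (7 of 9 positive), with levels from 8.496 to 8.813 and from 8.60 to 8.82. Hepatocyte markers had a median of 0.04 (6 of 9 positive).

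Mesothelial cells cover the liver surface and also make matrix. Their 5 markers had a median of 0.41 with 4 of 5 positive, and their mean log2 level ran from 4.87 to 5.18 with GFP and from 5.15 to 5.82 with CREB-H. Upk3b read 5.73, 5.77 and 5.19 against 5.86, 6.67 and 6.15, without overlap (0.66, SE 0.25), and Gpm6a had 0.83 (SE 0.29). Wt1 went the other way, with -0.20 (SE 0.15). Msln and Wt1 lay below the array median on 4 arrays each and Lrrn4 on 5. Mesothelial and Kupffer cell markers were high on CREB-H 2, the array on which the stellate cell and matrix genes had their highest median, 0.24 above the GFP mean. Other lists were also highest there, among them laminins, nidogens and other matrix proteins (0.28) and liver endothelial markers (0.26). Bile duct and lymphocyte markers were highest on CREB-H 1, and other collagens and hepatocyte markers on GFP 2. No marker passed over all probe sets, and the part of any of these cell types in the levels of the matrix genes was not tested.

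**Figure D4:**
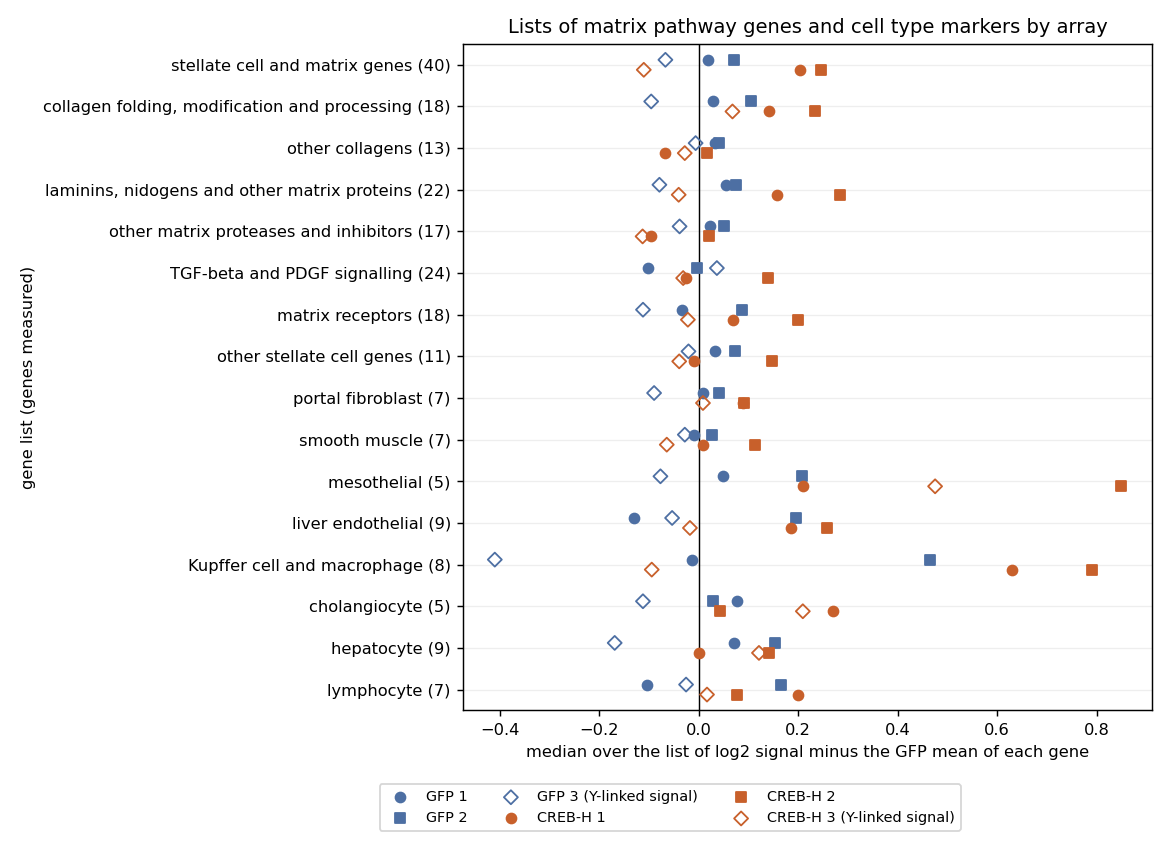
For each gene list, the median over its genes of the log2 signal minus the GFP mean of the gene, on each of the 6 arrays, with the number of genes measured in brackets. The 40 stellate cell and matrix genes lie between -0.11 and 0.24, and the widest spread between arrays is that of the Kupffer cell and macrophage markers, from -0.41 to 0.79.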

How the data were processed

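The authors deposited log2 values for every probe set on each array. The submitters' processing notes name the Transcriptome Analysis Console. The log2 scale was read from the values, and no source used here states the summarisation, normalization or filters. Probe sets were named through the platform annotation in GEO: 23521 probe sets had 1 gene symbol, 1814 had several and 16010 were not listed. For a gene with several probe sets, the one with the highest mean over 6 arrays was used. The groups were compared across all 41345 probe sets by lmFit and eBayes of limma (version 3.58.1, under R 4.3.3) with group as the single term, two-sided, with Benjamini-Hochberg adjustment at 0.05. Standard errors are limma's moderated ones. A single gene also had an exact permutation test. The model was tested on simulated data. Genes and lists were chosen with earlier results of these data known, so they are no independent support. Named genes were all members and up to 3 genes per other list with the lowest p. Further bile duct and mesothelial markers are named for their low signal or their sign. A planned ranking of genes by correlation with the list is not given, because replicate 3 of both groups differs from the other 4 arrays in Y-linked signal. Gene coordinates are not given because the table names no build; promoter windows are RefSeq's. Protein sequences were not used here. Deviations of same-numbered arrays from their group means had correlations across probe sets of 0.0785, 0.127 and 0.33. GFP 1 with CREB-H 2 had 0.159 and GFP 2 with CREB-H 1 had 0.121, so replicates 1 and 2 did not stand out as pairs. Replicate 3 with arrays of another number had -0.232 to -0.161. The numbers were not treated as pairs. The alternatives were scaling, dim filters, variance models, array weights, the replicate block, a Y-linked term, other uses of probe sets and each array left out.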

Additional observations from a re-analysis of the deposited data

How the results depend on the processing

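No gene of the list passed after adjustment under any of the 18 alternatives (lowest adjusted p = 0.441, with a term for Y-linked signal), and 21 of 40 kept their sign in all of those that gave them a value. The count of genes higher at an unadjusted p below 0.05, 1 in the main comparison, was 2 under quantile normalization, median centring or 1 probe set per gene (beside 3.38%, 3.39% and 3.84% of all features tested), 5 with the replicate block (3.42%), 6 with the Y-linked term and 7 without replicate 3 of both groups (3.74% each). With 1 array left out it was 1 to 8: 8 without CREB-H replicate 3 (3.04%), 4 without GFP replicate 2 (2.53%), 2 without GFP replicate 3 (3.65%) and 3 in the absence of GFP replicate 1 (2.25%). The labels link same-numbered arrays by the number alone, while replicate 3 of both groups also shared Y-linked signal; the replicate block changed no adjusted call. The count higher without overlap, 3, was 18 without replicate 3 of both groups and 3 to 17 with 1 array left out (17 without CREB-H replicate 3, 8 without GFP replicate 2, 5 without GFP replicate 1, beside 10.5%, 9.32% and 9.27% of all probe sets). The count lower without overlap, 0, was 1 without replicate 3 of both groups and 0 to 3 with 1 array left out (3 without CREB-H replicate 1, 2 without GFP replicate 1, 1 without CREB-H replicate 3, beside 11.7%, 11.9% and 13.6%). Fewer arrays per group make non-overlap more frequent by construction.

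Signs turned in at least 1 alternative in 19 of the 40 genes, and in 12 without CREB-H replicate 2. These were not only small estimates: Tagln (0.21 in the main comparison), Loxl1 (0.18) and Sparc (0.17) lay above the list median of 0.16. The log2 fold change of Col6a2 turned to 0.00488 under median centring, 0.053 with array weights and 0.099 without replicate 3 of both groups. Under the last 2, Myl9 turned to -0.021 and -0.0072 and Ctgf to -0.013 and -0.061. With the mean of probe sets Ctgf turned to -0.0018 and Col6a1 to -0.046. Without replicate 3 of both groups Acta2 was 0.037, Ecm1 0.060 and Colec11 0.080. With 1 array left out the range was -0.119 to 0.172 for Col1a2, -0.090 to 0.508 for Col3a1, -0.105 to 0.124 for Col4a2, -0.058 to 0.084 for Col5a2, -0.141 to 0.081 for Col6a2, -0.127 to 0.532 for Col14a1, -0.083 to 0.210 for Reln, -0.191 to 0.0067 for Acta2, -0.013 to 0.457 for Tagln, -0.066 to 0.051 for Myl9, -0.027 to 0.066 for Fn1, -0.125 to 0.117 for Eln, -0.064 to 0.391 for Loxl1, -0.055 to 0.495 for Sparc, -0.200 to 0.209 for Ctgf, -0.131 to 0.026 for Hgf, -0.328 to 0.082 for Ecm1 and -0.244 to 0.155 for Colec11. The cause of these turns was not tested. The dim filters left out Timp1 (25% and 50%) and Lox and Loxl1 (50%), so the cross-linking enzymes have no median there. Over all probe sets the median went from -0.015 to 0.005 under quantile normalization and to 0.003 under centring, in both cases a shift below 0.1.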

Other observations

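Markers of bile duct cells and of lymphocytes went in both directions, though more were higher than lower. The bile duct markers had a median of 0.25 with 4 of 5 positive, and the lymphocyte markers a median of 0.04 with 5 of 7 positive. Sox9, a transcription factor of bile duct and progenitor cells, read 6.31, 6.19 and 6.08 with GFP and 5.80, 5.95 and 5.75 with CREB-H (log2 fold change -0.36, SE 0.11). Krt19, a keratin of the same ducts, read 4.16, 4.41 and 4.14 against 4.75, 4.50 and 4.60 (0.38, SE 0.12). The groups did not overlap in either gene, in opposite directions. Krt19 lay below the array median on all 6 arrays, and Sox9 on none. The other positive bile duct markers were dim as well: Epcam and Cftr lay below the array median on all 6 arrays and Krt7 on 5. Of the B cell genes, Cd79a, a chain of the B cell receptor, had 0.57 (SE 0.18) and Ms4a1, which encodes CD20, had 0.38 (SE 0.15), while Cd3g of T cells had -0.30 (SE 0.24). None passed over all probe sets.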
